A study of Mus musculus with 35 samples.

Results

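A completed pregnancy was compared with none in 2 sorted fractions of basal mammary cells of the mouse, to see which genes differed by reproductive history in one fraction more than in the other. The quantity followed for each gene was the parity effect (parous minus nulliparous) in basal CD49f-high cells minus the parity effect in basal CD49f-low cells. It rests on 11 of the 35 samples of the study, in 4 groups. These were parous CD49f-high cells (2 samples), nulliparous CD49f-high cells (3 samples), parous CD49f-low cells (3 samples) and nulliparous CD49f-low cells (3 samples). Parous mice had been mated at the age of 42 days, and 21 days were given to lactation and 40 days to involution, in which the gland regresses. Nulliparous mice were virgins of matched age; the labels used here give no strain and no allele. The 4th glands of 5 mice were pooled for a sample, and replicates are different pools. Both fractions had been gated as low for CD24 and negative for Sca1, and CD49f-high samples came from 2000 cells while CD49f-low samples came from 10000 cells. Another parous CD49f-high array had been left out by the submitters because its hybridisation was faulty, and the 2 that remain are numbered replicates 2 and 3.

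The basal layer of the mammary epithelium lies against the basement membrane and consists largely of myoepithelial cells, which contract under oxytocin and eject milk. CD49f is integrin alpha 6, a laminin receptor encoded by Itga6, and basal cells sorted for high CD49f have been used as a fraction rich in cells that can regrow a gland after transplantation. Lgr5 encodes a receptor for R-spondins, secreted proteins that raise Wnt signalling, and it marks stem cells in several epithelia. Contraction of smooth muscle and myoepithelium depends on phosphorylation of the myosin light chain, which a myosin phosphatase removes.

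The sort was checked on the arrays. Basal keratin and adhesion genes averaged 9.18 to 9.78 log2 units in the 11 basal samples, against 6.98 to 7.47 in luminal samples. RNA of Itga6 did not separate the fractions: it was 10.65 and 10.76 in parous and 10.72, 10.78 and 10.85 in nulliparous CD49f-high samples, against 10.88, 10.89 and 10.76 in parous and 10.32, 10.78 and 10.81 in nulliparous CD49f-low samples. The gate was set on the protein. The CD49f-high libraries stood apart. Their mean SD over genes was 0.231 in parous and 0.236 in nulliparous samples, against 0.165 in parous and 0.206 in nulliparous CD49f-low samples and 0.158 to 0.185 in the other groups. On the first principal component of the 11 samples (26.6% of the variance) the parous CD49f-high samples lay at -37.0 and -36.1 and the nulliparous CD49f-high samples at -2.0, 30.0 and 28.0, while the parous CD49f-low samples lay between -3.7 and -2.4 and the nulliparous CD49f-low samples at -7.8, 14.2 and 20.3. Nulliparous replicate 1 of each fraction therefore lay on the parous side of its group. The number of cells per sample and the CD49f gate cannot be told apart.

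The parity effect differed between the 2 basal fractions for 453 of 19937 genes, which is 2.27% of the genes tested. A gene was called when its adjusted p was under 0.05 (limma, Benjamini-Hochberg over all genes), and 3013 genes had an unadjusted p under 0.05. The difference was positive, that is higher in CD49f-high cells, for 197 genes (0.988%) and negative for 256 genes (1.28%). Parity itself changed 1806 genes in CD49f-high cells (9.06%; 800 rose, 4.01%, and 1006 fell, 5.05%) and 193 genes in CD49f-low cells (0.968%; 57 rose, 0.286%, and 136 fell, 0.682%). Seen the other way, CD49f-high and CD49f-low cells differed in 1431 genes in parous mice (7.18%) and in 23 genes in nulliparous mice (0.115%). These counts moved with the samples and the fit. Parity changed 590 genes in CD49f-high and 544 in CD49f-low cells with array weights. These counts were 488 and 156 with weights for each subpopulation, and 367 and 18 with the 11 basal samples alone. Between the fractions in parous mice the count was 855 without parous CD49f-low replicate 2, 949 without parous CD49f-low replicate 3 and 159 with the 11 basal samples alone. In nulliparous mice it was 0 without nulliparous CD49f-low replicate 2, 189 without nulliparous CD49f-high replicate 1 and 0 with the basal samples alone, where 1139 genes had an unadjusted p under 0.05 (limma). The same kind of difference between luminal Sca1-positive and Sca1-negative cells was called for 19 genes (0.0953%), and that between luminal Sca1-negative and basal CD49f-low cells for 60 genes (0.301%); these counts are from samples that vary less.

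The count depended on how the wider spread of CD49f-high samples was treated. With weights for each subpopulation, which were 0.572 for CD49f-high and 0.927 for CD49f-low cells and 1.08 to 1.23 for the others, 71 genes were called (0.356%; 25 positive, 0.125%, and 46 negative, 0.231%). With the 11 basal samples alone 17 genes were called (0.0853%), and leaving out 1 sample gave 185 genes without nulliparous CD49f-low replicate 1 and 865 without nulliparous CD49f-high replicate 1. Of the 453 genes, 68 kept their call both without each of the 11 samples in turn and with weights for each subpopulation, and 15 of them also with the basal samples alone. Below, a call that passed both of the first checks is said to hold, and the 59 called genes named include 25 of that kind. Some of the 25 were named because their call held, so this share does not stand for all called genes. With the 11 basal samples alone, 8 of the 59 named genes kept their call. A call that is said to hold can thus still be lost in that fit.

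For 364 of the 453 genes the parity effect was called in CD49f-high cells and not in CD49f-low cells, for 24 it was called in CD49f-low cells and not in CD49f-high cells, for 6 in both and for 59 in neither. The estimate was larger in size in CD49f-high cells for 397 of the 453 and for 12601 of all 19937 genes (63.2%). The estimates had opposite signs for 369 of the 453 and for 9181 of all genes (46.1%). Choosing genes by a large difference favours both, as does the wider spread of the CD49f-high samples, so these counts are descriptions. Of the 369, 170 were positive in CD49f-high and negative in CD49f-low cells and 199 the reverse. A call in both fractions with opposite signs was made for 3 genes, Medag, Aff1 and Trappc3. Across all 19937 genes the parity effects of the 2 fractions had a Pearson's r of 0.266 and the same sign for 10756, a description over genes, which are not independent.

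**Figure D1:**
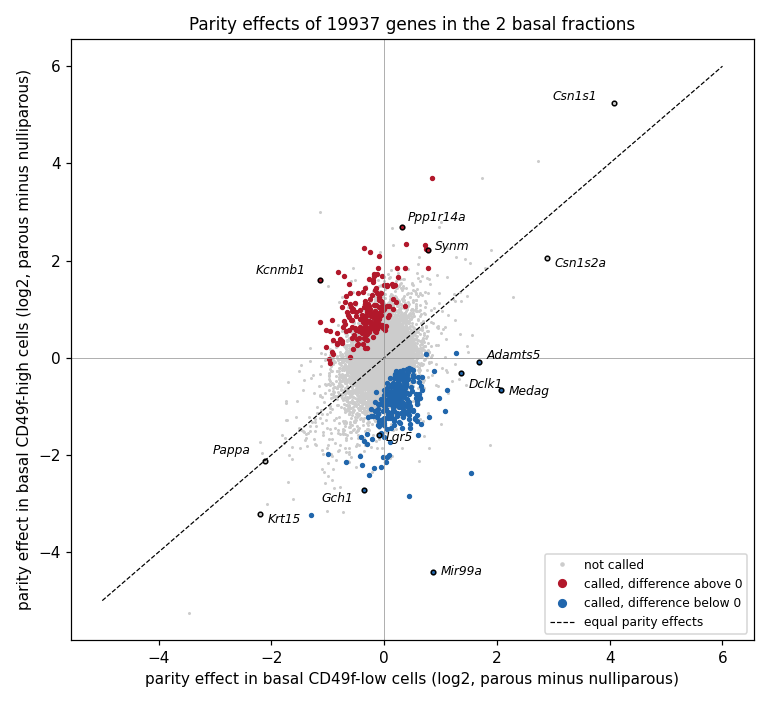
Parity effect of each of 19937 genes in CD49f-high cells (vertical axis, log2) and in CD49f-low cells (horizontal axis, log2). Red points are the 197 genes with a called positive difference, blue points the 256 with a called negative one, grey points the rest, and the dashed line marks equal effects. Ppp1r14a, Lgr5 and Gch1 lie away from the line along the vertical axis, Medag, Adamts5 and Dclk1 along the horizontal axis, and Krt15, Pappa and Csn1s2a nearer to the line.

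Lgr5 (probe set 10372503) fell after parity in CD49f-high cells, and its parity effect differed between the fractions. Its level was 7.22 and 7.18 in parous CD49f-high samples, against 9.02, 8.99 and 8.35 in nulliparous CD49f-high samples. In CD49f-low cells it was 8.89, 8.68 and 8.84 in parous samples, against 9.01, 8.66 and 9.0 in nulliparous samples. The 2 parous CD49f-high samples were below all 9 other basal samples, which overlapped one another. In CD49f-high cells Lgr5 fell by 1.58 log2 units (SE 0.18, adjusted p = 1.31e-06), where 1 log2 unit is a 2-fold difference in signal, and its effect in CD49f-low cells was -0.09 (SE 0.16, adjusted p = 0.922). The difference of the effects was -1.49 (SE 0.24, 95% interval -1.98 to -1.01, adjusted p = 0.000888). This call held (adjusted p = 0.0102 with weights for each subpopulation), and the adjusted p was 0.127 with the basal samples alone. In pools of sorted cells, fewer cells that express a gene and less of its RNA per cell cannot be told apart.

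For the related receptors Lgr4 and Lgr6 the difference did not pass. Lgr4 was 9.35 and 8.85 in parous and 9.02, 9.85 and 9.90 in nulliparous CD49f-high samples, with a difference of effects of -0.49 (SE 0.29, adjusted p = 0.456). In CD49f-low cells Lgr6 fell by 0.70 (SE 0.15, adjusted p = 0.0153) and had an estimate of -0.39 (SE 0.17, adjusted p = 0.158) in CD49f-high cells; its difference, 0.30 (SE 0.23, adjusted p = 0.582), did not pass. Among 9 measured Lgr and R-spondin genes Lgr5 was the 1 with a called difference. Lgr5 was given as a marker of this comparison, so this count is no result about the list. Axin2, a feedback target of Wnt signalling, was 7.40 and 7.58 in parous and 7.15, 7.31 and 8.12 in nulliparous CD49f-high samples, against 6.96, 7.07 and 7.61 in parous and 7.08, 7.51 and 7.65 in nulliparous CD49f-low samples. All 4 groups of Axin2 overlapped, and the difference was 0.17 (SE 0.30, adjusted p = 0.864).

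Of 19 measured Wnt target genes, 2 had a called negative difference, beside 1.28% of all genes, and none a positive one. The list median was 0.05 against 0.04 for all genes. Lgr5, a marker given with this comparison, was 1 of the 2. The other was Cd44, the receptor for hyaluronan, at 9.18 and 9.53 in parous and 10.04, 10.73 and 10.71 in nulliparous CD49f-high samples, against 10.23, 10.52 and 10.28 in parous and 9.49, 10.30 and 10.33 in nulliparous CD49f-low samples. Its difference was -1.45 (SE 0.33, adjusted p = 0.016). The call of Cd44 was lost without parous CD49f-high replicate 2, nulliparous CD49f-low replicate 1 or nulliparous CD49f-high replicate 2 (adjusted p up to 0.062) and with weights for each subpopulation (adjusted p = 0.0998). In CD49f-high cells 4 of the 19 Wnt targets, Lgr5 among them, fell, where 5.05% of all genes fell, and none rose. In CD49f-low cells none passed. Among 38 Wnt ligands, receptors and modulators 1 had a called positive difference, the Wnt co-receptor gene Ryk (1.02, SE 0.26). Of 22 Notch pathway genes none was called for the difference; Notch1 had -0.43 (SE 0.26, adjusted p = 0.464) and the target Hes1 -0.12 (SE 0.40, adjusted p = 0.935).

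**Figure D2:**
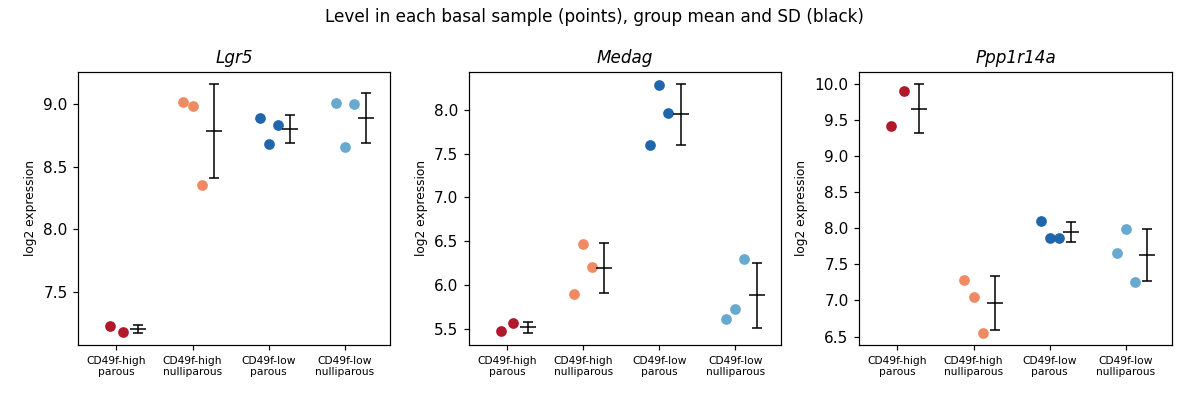
Level (log2 expression) of Lgr5, Medag and Ppp1r14a in each of the 11 basal samples (points), with the group mean and SD in black. The 2 parous CD49f-high samples are the lowest of Lgr5 and the highest of Ppp1r14a, and the 3 parous CD49f-low samples are the highest of Medag.

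Medag (probe set 10527649), first described as an estrogen-dependent gene that promotes adipocyte formation, went opposite ways in the 2 fractions. It was 5.48 and 5.56 in parous CD49f-high samples, against 5.90, 6.47 and 6.21 in nulliparous CD49f-high samples. In CD49f-low cells it was 7.59, 8.28 and 7.96 in parous samples, against 5.61, 5.73 and 6.30 in nulliparous samples. Neither pair of groups overlapped, and the parous CD49f-low samples were above all other basal samples. It fell by 0.67 in CD49f-high cells (SE 0.21, adjusted p = 0.0446) and rose by 2.06 in CD49f-low cells (SE 0.19, adjusted p = 2.86e-07). The difference was -2.74 (SE 0.29, 95% interval -3.32 to -2.15, adjusted p = 5.11e-06), and it held under each of the checks above, with an adjusted p of 0.0365 for the basal samples alone. Those checks were on the difference, and the fall in CD49f-high cells lay near the threshold. The parity effect of Medag was 1.60 (SE 0.19) in total epithelium and, in luminal Sca1-negative cells, 0.22 (SE 0.19, adjusted p = 0.742). Stromal samples had Medag at 9.08 to 9.56. Fibroblast markers averaged 5.76 to 5.86 in parous and 5.84 to 6.40 in nulliparous CD49f-high samples, against 6.01 to 6.35 in parous and 6.51 to 6.89 in nulliparous CD49f-low samples; stromal samples had 10.04 to 10.40. The part of fibroblasts in the Medag values was not tested. Medag was the 1 of 17 adipogenesis and adipocyte genes with a called difference (median 0.06). Medag was given as a marker of this comparison, so this count is no result about the list.

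Aff1, which encodes a part of a transcription elongation complex, was the other gene that fell in CD49f-high and rose in CD49f-low cells. It was 8.79 and 8.78 in parous and 9.41, 9.76 and 9.21 in nulliparous CD49f-high samples, against 10.02, 10.09 and 9.67 in parous and 9.15, 9.17 and 9.46 in nulliparous CD49f-low samples (difference -1.33, SE 0.20, adjusted p = 0.000624). Trappc3, a subunit of a complex that tethers transport vesicles, went the other way, at 9.96 and 10.10 in parous and 9.11, 9.30 and 8.80 in nulliparous CD49f-high samples, against 8.65, 8.85 and 8.80 in parous and 9.18, 9.44 and 9.38 in nulliparous CD49f-low samples (difference 1.52, SE 0.18, adjusted p = 3.31e-05). For both genes the 2 histories did not overlap in either fraction, and both calls held. Aff1 has 2 probe sets, and its values are those of the one with the higher mean. Aff1 and Trappc3 were singled out after their values were seen.

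For 24 genes the parity effect was called in CD49f-low cells and not in CD49f-high cells, and it was positive for 9 and negative for 15. Flnc, the actin cross-linker filamin C, was 7.96 and 7.76 in parous and 7.88, 7.89 and 7.49 in nulliparous CD49f-high samples. In CD49f-low cells Flnc was 9.06, 9.29 and 9.28 in parous samples, against 7.82, 7.84 and 8.16 in nulliparous samples, a rise of 1.27 (SE 0.16), and the difference was -1.17 (SE 0.25, adjusted p = 0.0104, and 0.0792 with weights for each subpopulation). The doublecortin-like kinase gene Dclk1 rose in CD49f-low cells by 1.36 (SE 0.23). It was 6.96 and 5.72 in parous and 6.44, 6.46 and 7.03 in nulliparous CD49f-high samples, against 8.15, 8.37 and 8.09 in parous and 6.68, 6.85 and 7.0 in nulliparous CD49f-low samples, so the histories overlapped in the first fraction and not in the second. Its difference of -1.67 (SE 0.35, adjusted p = 0.00989) was lost without parous CD49f-high replicate 3 (adjusted p = 0.0784) and with weights (adjusted p = 0.0538).

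Adamts5, a protease of the proteoglycan aggrecan and related matrix proteins, was 7.58 and 7.50 in parous and 7.85, 7.21 and 7.79 in nulliparous CD49f-high samples, and these groups overlapped. In CD49f-low cells it was 9.40, 9.59 and 8.98 in parous and 7.59, 7.06 and 8.26 in nulliparous samples, an effect of 1.69 (SE 0.28, adjusted p = 0.000813). The difference of -1.77 (SE 0.42, adjusted p = 0.0207) was lost without parous CD49f-low replicate 2, nulliparous CD49f-low replicate 1 or nulliparous CD49f-low replicate 2 (adjusted p up to 0.0597), and with weights (adjusted p = 0.129).

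In the other direction, Iftap, which encodes a protein associated with transport in cilia, fell by 1.13 in CD49f-low cells (SE 0.24, adjusted p = 0.0116). It was 7.26 and 6.67 in parous and 5.87, 6.10 and 6.74 in nulliparous CD49f-high samples, against 5.30, 5.39 and 5.00 in parous and 6.44, 6.06 and 6.60 in nulliparous CD49f-low samples. The difference was 1.86 (SE 0.36, adjusted p = 0.00483), and the call held. Lama1, the alpha 1 chain of laminin and thus part of the basement membrane, was 8.58 and 8.88 in parous and 8.73, 8.04 and 8.38 in nulliparous CD49f-high samples. In CD49f-low cells it fell to 7.83, 7.59 and 7.59 in parous samples, against 8.32, 8.59 and 8.36 in nulliparous samples. The difference of 1.10 (SE 0.23, adjusted p = 0.0104) passed without each sample in turn and had an adjusted p of 0.0676 with weights.

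Ppp1r14a (probe set 10551736) encodes CPI-17, an inhibitor of myosin phosphatase, and rose in CD49f-high cells. It was 9.41 and 9.89 in parous CD49f-high samples, against 7.28, 7.05 and 6.55 in nulliparous CD49f-high samples. In CD49f-low cells it was 8.10, 7.87 and 7.87 in parous samples, against 7.65, 7.98 and 7.26 in nulliparous samples, and these groups overlapped. The rise was 2.69 (SE 0.29, adjusted p = 8.48e-07) in CD49f-high cells, and the effect was 0.31 (SE 0.26, adjusted p = 0.768) in CD49f-low cells. The difference of 2.38 (SE 0.39, 95% interval 1.57 to 3.18, adjusted p = 0.00116) held, also with the basal samples alone (adjusted p = 0.0402). Of 12 measured genes of the myosin phosphatase axis, 2 had a called difference, beside 2.27% of all genes, and the list median was -0.08. They were Ppp1r14a and, with the opposite sign, Prkca (-1.23, SE 0.29), which encodes a protein kinase C that phosphorylates CPI-17. Ppp1r14a was given as a marker of this comparison, so its call is no result about the list. The call of Prkca was lost without 6 of the 11 samples.

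Kcnmb1, Casq2, Synm, Sync and Dmd had called positive differences. They form no list. Kcnmb1 was among the largest differences, and the other 4 were singled out after their values were seen. Flnc, Adamts5 and Dclk1, described above, were singled out in the same way, and their called differences were negative (-1.17 for Flnc). Kcnmb1, the subunit that tunes the calcium-activated potassium channel of smooth muscle, was 8.87 and 8.44 in parous and 7.30, 7.77 and 6.11 in nulliparous CD49f-high samples, against 7.04, 6.72 and 6.33 in parous and 7.82, 7.73 and 7.97 in nulliparous CD49f-low samples. Parous samples were the higher ones in the first fraction and the lower ones in the second, without overlap. Its difference was 2.74 (SE 0.45, adjusted p = 0.00122); the rise of 1.59 (SE 0.34) in CD49f-high cells passed, and the effect of -1.14 (SE 0.30, adjusted p = 0.0631) in CD49f-low cells did not.

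Casq2, a calcium-binding protein of the sarcoplasmic reticulum, was 6.97 and 7.77 in parous and 5.10, 5.50 and 5.98 in nulliparous CD49f-high samples, against 6.43, 5.93 and 6.24 in parous and 6.02, 5.99 and 5.89 in nulliparous CD49f-low samples (difference 1.62, SE 0.26, adjusted p = 0.000888). Synm, the intermediate filament protein synemin, rose in both fractions and more in CD49f-high cells. Its level was 9.29 and 9.61 in parous and 7.62, 7.17 and 6.90 in nulliparous CD49f-high samples, against 8.86, 8.48 and 8.44 in parous and 8.11, 7.55 and 7.80 in nulliparous CD49f-low samples (difference 1.45, SE 0.25, adjusted p = 0.00197). The calls of Kcnmb1, Casq2 and Synm held, but all were lost with the basal samples alone (limma adjusted p = 0.127, 0.194 and 0.200).

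Synemin and syncoilin, the product of Sync, bind the complex of proteins around dystrophin, which links the cytoskeleton to laminin. Sync rose by 1.84 (SE 0.18) in CD49f-high and by 0.77 (SE 0.16) in CD49f-low cells, and its difference of 1.07 (SE 0.24, adjusted p = 0.0145) was lost without parous CD49f-high replicate 3 (adjusted p = 0.0816) and with weights (adjusted p = 0.0735). Dmd, the dystrophin gene, was 7.13 and 8.03 in parous and 5.63, 5.19 and 4.96 in nulliparous CD49f-high samples, against 6.54, 6.46 and 5.92 in parous and 5.39, 5.88 and 5.48 in nulliparous CD49f-low samples. Parous samples were the higher ones in both fractions for Dmd, and the effect was called in CD49f-high cells (2.32, SE 0.25) and not in CD49f-low cells (0.72, SE 0.22, adjusted p = 0.146). The difference of 1.60 (SE 0.33, adjusted p = 0.00935) was lost without parous CD49f-high replicate 3 (adjusted p = 0.0654) and with weights (adjusted p = 0.0614).

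The list of 15 contractile genes that mark myoepithelium had 1 called difference, positive, for the smooth muscle actin gene Actg2. The median difference of the list was 0.54, with 14 of 15 estimates above 0, beside a median of 0.04 for all genes. In CD49f-high cells 8 of the 15 rose, where 4.01% of all genes rose, and none fell. Among the 8 were Smtn (1.06, SE 0.20), Myh11 (0.89, SE 0.22), Tagln (0.87, SE 0.25) and Oxtr, the oxytocin receptor gene (1.43, SE 0.25). In CD49f-low cells none of the 15 passed. Averaged over the list, levels were 9.76 to 9.82 in parous and 8.94 to 9.44 in nulliparous CD49f-high samples, against 9.25 to 9.41 in parous and 9.18 to 9.30 in nulliparous CD49f-low samples. The parous CD49f-high samples were above all other basal samples.

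Actg2 was 10.50 and 9.89 in parous and 9.54, 9.43 and 9.32 in nulliparous CD49f-high samples, against 8.89, 8.42 and 8.35 in parous and 9.25, 9.62 and 8.92 in nulliparous CD49f-low samples. Its difference was 1.48 (SE 0.31, adjusted p = 0.00935), with an adjusted p of 0.0514 without parous CD49f-high replicate 2 and 0.0735 with weights. Oxtr had a difference of 1.20 (SE 0.34, adjusted p = 0.0548), which did not pass. Acta2, the most used marker of myoepithelium, was 11.95 and 11.96 in parous and 11.77, 11.47 and 11.45 in nulliparous CD49f-high samples, against 11.71, 11.60 and 11.54 in parous and 11.73, 11.69 and 11.62 in nulliparous CD49f-low samples (difference 0.46, SE 0.26, adjusted p = 0.431). Its parous CD49f-high samples were above the other 9, while the difference did not pass. Pericyte markers, which belong to another contractile cell type, averaged 6.14 to 6.17 in parous and 5.91 to 6.20 in nulliparous CD49f-high samples, against 6.04 to 6.30 in parous and 6.07 to 6.35 in nulliparous CD49f-low samples, with 7.54 to 7.90 in stromal samples. The pericyte levels of the 4 basal groups overlapped.

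**Figure D3:**
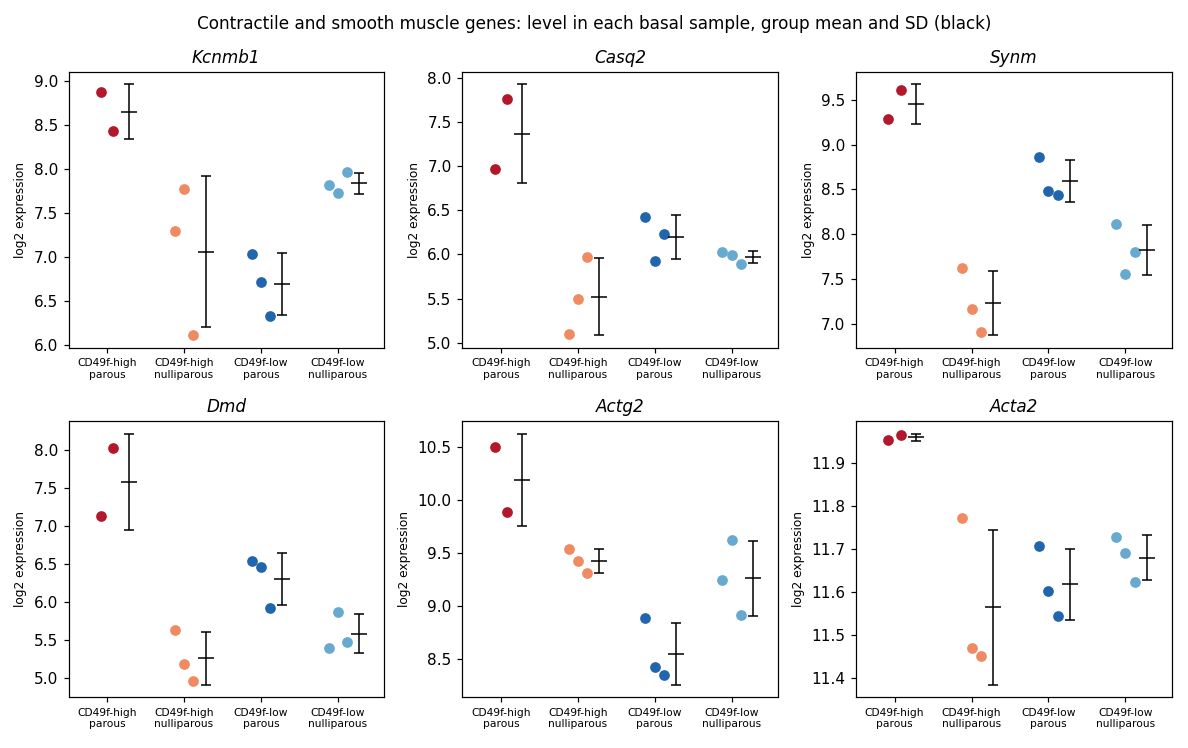
Level (log2 expression) of Kcnmb1, Casq2, Synm, Dmd, Actg2 and Acta2 in each of the 11 basal samples (points), with group mean and SD in black. In the panels of Kcnmb1, Casq2, Synm, Dmd and Actg2 the parous CD49f-high samples are the highest group by mean, and for Acta2 too they are above the other 9 samples, at 11.95 and 11.96 on a scale where all 11 span 11.45 to 11.96.

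Promoters of these genes are shown because smooth muscle genes are known to be driven through CArG boxes, the binding sequence of serum response factor. RefSeq promoter windows of the mouse build GRCm38.p6 (250 bases before to 50 after the start) were given for 5 of 6 genes scanned (Ppp1r14a, Kcnmb1, Casq2, Synm and Dmd; none for Actg2), in 6 windows. A CArG box on either strand was in 1 of the 6, at one start of Dmd, and in 535 of 32851 windows of all genes (1.63%). The window of Dmd (chrX:82948620-82948919, plus strand) has the box, in capitals, beginning 98 bases before the start. The window of Ppp1r14a (chr7:29289070-29289369, plus strand) is shown beside it as that of the gene with the larger difference and holds no such box, which says only that these letters are not in this window.
Dmd: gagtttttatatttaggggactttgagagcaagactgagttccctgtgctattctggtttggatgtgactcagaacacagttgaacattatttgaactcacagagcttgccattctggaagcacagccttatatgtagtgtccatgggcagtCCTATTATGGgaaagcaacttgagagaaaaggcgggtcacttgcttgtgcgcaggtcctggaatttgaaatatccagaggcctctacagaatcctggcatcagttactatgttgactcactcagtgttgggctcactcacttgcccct
Ppp1r14a: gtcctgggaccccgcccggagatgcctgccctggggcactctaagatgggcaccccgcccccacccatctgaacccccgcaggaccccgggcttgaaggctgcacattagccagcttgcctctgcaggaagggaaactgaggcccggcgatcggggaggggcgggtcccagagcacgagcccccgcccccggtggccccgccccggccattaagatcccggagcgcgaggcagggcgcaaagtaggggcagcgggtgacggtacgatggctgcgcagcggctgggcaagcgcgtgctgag

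Genes that fell in CD49f-high cells and not in CD49f-low cells included Gch1, which encodes the first enzyme of tetrahydrobiopterin synthesis. Gch1 was 6.05 and 4.81 in parous and 8.11, 8.69 and 7.65 in nulliparous CD49f-high samples, against 7.31, 7.65 and 6.92 in parous and 7.36, 8.09 and 7.47 in nulliparous CD49f-low samples (difference -2.36, SE 0.38, adjusted p = 0.00097). Among the largest negative differences were also Kctd9 (-2.19, SE 0.38), the cofilin phosphatase gene Ssh2 (-2.10, SE 0.39), the carbonic anhydrase-related gene Car8 (-2.03, SE 0.37) and the sphingomyelin synthase gene Sgms2 (-2.01, SE 0.39), and the calls of all 5 held. In these 5 genes the parity effect was called in CD49f-high cells (-2.72 to -1.36) and not in CD49f-low cells.

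Some negative differences were singled out after their values were seen because their calls held. Zcchc9, a zinc knuckle protein gene, was 8.27 and 8.45 in parous and 10.17, 9.97 and 9.81 in nulliparous CD49f-high samples, against 9.92, 9.62 and 9.62 in parous and 9.81, 9.71 and 9.63 in nulliparous CD49f-low samples (difference -1.63, SE 0.19, adjusted p = 3.31e-05). Emp1, an epithelial membrane protein gene, was 8.29 and 8.28 in parous and 9.65, 9.94 and 9.61 in nulliparous CD49f-high samples, against 9.53, 9.75 and 9.51 in parous and 9.59, 9.58 and 9.26 in nulliparous CD49f-low samples (difference -1.56, SE 0.23, adjusted p = 0.000373). In both genes the parous CD49f-high samples were below all others. Fosl1, the AP-1 transcription factor Fra-1, had 8.47 and 8.14 in parous and 9.03, 9.75 and 9.69 in nulliparous CD49f-high samples, against 9.49, 9.72 and 9.83 in parous and 8.66, 9.40 and 9.22 in nulliparous CD49f-low samples (difference -1.77, SE 0.31, adjusted p = 0.00198).

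The glucose transporter genes Slc2a1 and Slc2a4, also singled out after their values were seen, had differences of opposite sign. Slc2a1 encodes GLUT1, the basal transporter, and was 8.79 and 8.70 in parous and 9.91, 9.41 and 9.76 in nulliparous CD49f-high samples, against 9.77, 10.14 and 10.13 in parous and 9.87, 9.56 and 9.86 in nulliparous CD49f-low samples (difference -1.20, SE 0.21, adjusted p = 0.00197). Slc2a4 encodes GLUT4, the insulin-responsive transporter of muscle and fat, and was 7.74 and 7.44 in parous and 6.72, 6.64 and 6.79 in nulliparous CD49f-high samples, against 6.70, 6.49 and 6.30 in parous and 7.09, 6.92 and 6.68 in nulliparous CD49f-low samples (difference 1.27, SE 0.22, adjusted p = 0.00153). Slc2a1 fell and Slc2a4 rose in CD49f-high cells, and both calls of the difference held. In CD49f-low cells neither Slc2a1 (adjusted p = 0.564) nor Slc2a4 (adjusted p = 0.266) passed.

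Acadm, an enzyme that starts the oxidation of medium-chain fatty acids, was 8.97 and 8.59 in parous and 7.29, 7.53 and 7.44 in nulliparous CD49f-high samples, against 7.39, 7.59 and 8.11 in parous and 8.15, 8.25 and 7.80 in nulliparous CD49f-low samples (difference 1.73, SE 0.29, adjusted p = 0.00116). Park7, the redox-sensitive protein DJ-1, was 10.35 and 10.54 in parous and 9.18, 9.06 and 9.23 in nulliparous CD49f-high samples, against 9.70, 9.33 and 9.45 in parous and 9.86, 9.70 and 9.56 in nulliparous CD49f-low samples (difference 1.50, SE 0.21, adjusted p = 0.000207). Acadm and Park7 were singled out after their values were seen. Bcs1l, an assembly factor of respiratory complex III, had a difference of 1.96 (SE 0.36), and its parous CD49f-high samples, at 7.0 and 7.76, were above the other basal samples (5.03 to 6.24).

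Among the largest positive differences were also Rida, a deaminase gene (2.61, SE 0.60), Cebpzos (2.39, SE 0.39), the co-chaperone gene Dnajc18 (1.94, SE 0.38), the Golgi protein gene Zfpl1 (1.89, SE 0.23) and the granzyme B inhibitor gene Serpinb9 (1.86, SE 0.38). These 5 kept their call without each sample in turn, and with weights it was lost for Rida (adjusted p = 0.109), Dnajc18 (adjusted p = 0.0538) and Serpinb9 (adjusted p = 0.0735). Zfpl1 was 7.60 and 7.49 in parous and 5.92, 5.76 and 5.81 in nulliparous CD49f-high samples, against 6.42, 5.68 and 6.10 in parous and 6.34, 6.12 and 6.27 in nulliparous CD49f-low samples. Its parous CD49f-high samples were above all others, and the adjusted p was 4.31e-05, and 0.0366 with the basal samples alone.

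The 30 largest called differences, 15 in each direction, were taken with predicted, clone and family-numbered symbols left out. Larger ones left out in this way include Mir99a (-5.27), 1500002F19Rik (-3.91) and Snord16a (-3.28), and the calls of 1500002F19Rik and Snord16a held. Of the 30 taken, 15 kept their call without each sample in turn and 12 also with weights. Those that did not and belong to no list were 5 positive and 9 negative ones. The positive ones were Uts2b, which encodes a urotensin peptide (2.60, SE 0.71), the sperm protein gene Spa17 (2.19, SE 0.53), Asb7 (2.14, SE 0.57), Cspg4b (1.90, SE 0.51) and the Elongator subunit gene Elp4 (1.85, SE 0.50). The negative ones were the cystine transporter gene Slc7a11 (-2.14, SE 0.58), Mcts2 (-2.11, SE 0.46), Cbwd1 (-2.09, SE 0.45), the versican gene Vcan (-1.95, SE 0.54), Dennd2c (-1.84, SE 0.50), the nuclear pore gene Nup50 (-1.83, SE 0.40), Tmem243 (-1.82, SE 0.43), Palmd (-1.81, SE 0.41) and the synaptonemal complex gene Sycp1 (-1.80, SE 0.38). Each of these 14 calls was lost without 1 to 9 of the 11 samples, with a highest adjusted p of 0.0558 to 0.359, and all were lost with weights (adjusted p = 0.0538 to 0.195). The parity effect was called in CD49f-high cells for 13 of them, Tmem243 being the exception (adjusted p = 0.109), and in CD49f-low cells for 0 of 14.

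Probe sets of 2 microRNA precursor genes were among the called genes, of 300 microRNA genes tested, and were singled out after their values were seen. The share called was 0.333% in each direction, below the 0.988% positive and 1.28% negative of all genes. MicroRNA genes as a class were thus not called more often than others. Mir99a (probe set 10436600) was 3.45 and 4.21 in parous and 9.27, 7.59 and 7.85 in nulliparous CD49f-high samples, against 6.52, 6.86 and 5.63 in parous and 4.22, 6.56 and 5.63 in nulliparous CD49f-low samples. In CD49f-high cells it fell by 4.40 (SE 0.79), and its difference was -5.27 (SE 1.06, adjusted p = 0.0072, and 0.0688 with weights). The parous CD49f-high levels lay below the array medians of 5.81 to 5.92, and no measure of signal over background was used here, so these sizes are uncertain. Mir221 (probe set 10603805) was 7.95 and 7.43 in parous and 4.73, 6.02 and 5.28 in nulliparous CD49f-high samples, against 6.19, 5.22 and 6.86 in parous and 5.94, 5.31 and 5.87 in nulliparous CD49f-low samples. It rose in CD49f-high cells by 2.35 (SE 0.36), and its difference of 1.97 (SE 0.48, adjusted p = 0.0269) was lost without parous CD49f-low replicate 2, parous CD49f-high replicate 2 or nulliparous CD49f-low replicate 1 (adjusted p up to 0.0904) and with weights (adjusted p = 0.12). In CD49f-high cells the 2 histories did not overlap for either gene, while in CD49f-low cells they did.

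These arrays were hybridised with amplified cDNA, so a precursor or host transcript may give the signal and mature microRNAs were not measured. The mature sequences are given to identify the genes, from RefSeq (GRCm38.p6), with the seed (bases 2 to 8), which pairs with target RNAs, in capitals. Mir99a lies at chr16 on the plus strand and Mir221 at chrX on the minus strand, and no seed is shared among the 4 arms.
mmu-miR-99a-5p: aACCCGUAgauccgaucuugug
mmu-miR-99a-3p: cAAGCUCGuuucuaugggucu
mmu-miR-221-3p: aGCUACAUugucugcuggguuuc
mmu-miR-221-5p: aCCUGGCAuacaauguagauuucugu

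A set of parity effects was shared by the fractions. The effect was called in both fractions for 80 genes, with the same sign for 77. Of the 193 genes called in CD49f-low cells, 30 had a called difference between fractions, and of the 1806 called in CD49f-high cells, 370 did. Among all genes the share was 2.27%, and choosing genes by a part of the same difference raises both counts. A difference that was not called does not make an effect shared. Each fraction was set against its own nulliparous samples.

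Casein genes, which encode the main proteins of milk, rose in both. Csn1s1 was 9.54 and 9.64 in parous and 3.60, 6.01 and 3.44 in nulliparous CD49f-high samples, against 9.82, 9.98 and 9.99 in parous and 5.32, 7.31 and 4.95 in nulliparous CD49f-low samples. It rose by 5.24 (SE 0.95) in CD49f-high and by 4.07 (SE 0.85) in CD49f-low cells, with a difference of 1.17 and a 95% interval of -1.45 to 3.79. Csn2 rose by 4.05 (SE 0.76) in CD49f-high and by 2.73 (SE 0.68) in CD49f-low cells (difference 1.33, interval -0.77 to 3.43), and Csn1s2a by 2.05 (SE 0.44) in CD49f-high and by 2.89 (SE 0.40) in CD49f-low cells (difference -0.84, interval -2.06 to 0.37). Of 5 caseins 3 rose in each fraction, where 4.01% of all genes rose in CD49f-high and 0.286% in CD49f-low cells. None had a called difference, but the intervals leave room for differences of several log2 units. Csn3, also counted as a luminal progenitor gene, passed in neither fraction (2.03, SE 0.78, in CD49f-high and 1.43, SE 0.70, in CD49f-low cells).

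Ltf, the gene of the iron-binding milk protein lactoferrin, was 9.98 and 10.11 in parous and 6.58, 6.66 and 5.84 in nulliparous CD49f-high samples, against 9.70, 9.29 and 9.31 in parous and 8.87, 7.37 and 6.86 in nulliparous CD49f-low samples. It rose in CD49f-high cells (3.69, SE 0.50), the effect in CD49f-low cells was 1.73 (SE 0.45, adjusted p = 0.053), and the difference of 1.95 (SE 0.67, adjusted p = 0.122) did not pass. Of 14 whey and milk fat globule genes 3 rose and 1 fell in CD49f-high cells, beside 4.01% and 5.05% of all genes. None of the 14 passed in CD49f-low cells and none had a called difference (median 0.17). The whey protein gene Wap had levels of 5.76 to 6.23 in all 11 samples and passed in neither fraction.

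Luminal cells make milk, and their markers were read beside these genes. The 10 luminal progenitor markers, which include Csn3 and Ltf, averaged 7.54 to 7.57 in parous and 6.04 to 7.11 in nulliparous CD49f-high samples, against 7.40 to 7.47 in parous and 6.52 to 7.49 in nulliparous CD49f-low samples; their median difference was 0.56, and none was called. Pan-luminal markers averaged 8.29 to 8.54 in parous and 7.92 to 8.39 in nulliparous CD49f-high samples, against 8.49 to 8.61 in parous and 8.61 to 8.64 in nulliparous CD49f-low samples, with 9.97 to 10.32 in luminal samples. Of 13 pan-luminal markers 1, the keratin gene Krt7, had a called difference (1.94, SE 0.52). It was 6.57 and 8.68 in the 2 parous CD49f-high samples, so these replicates did not agree. The part of luminal cells in the casein values was not tested.

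Krt15, a keratin of basal and stem-like epithelial cells, fell in both fractions. Its levels were 7.31 and 6.77 in parous and 9.86, 10.14 and 10.77 in nulliparous CD49f-high samples, against 8.05, 7.14 and 7.37 in parous and 9.01, 9.86 and 10.32 in nulliparous CD49f-low samples. The falls were -3.22 (SE 0.34) in CD49f-high and -2.21 (SE 0.31) in CD49f-low cells, and the difference of -1.01 (interval -1.96 to -0.06, adjusted p = 0.289) did not pass over all genes. Krt5 and Krt14, the keratin pair that defines basal cells, passed in neither fraction, with differences of 0.01 (SE 0.27) and -0.08 (SE 0.33). None of 9 basal keratin and adhesion genes had a called difference, where 2.27% of all genes did, so none among 9 says little. In CD49f-high cells 2 fell, beside 5.05% of all genes, and in CD49f-low cells 1 fell, beside 0.682%.

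Pappa and Igfbp3, which act on insulin-like growth factors (IGF), fell in both fractions. Pappa, a protease that frees IGF from its binding proteins, was 6.45 and 7.04 in parous and 8.44, 8.99 and 9.16 in nulliparous CD49f-high samples, against 6.35, 6.26 and 6.45 in parous and 7.72, 9.05 and 8.63 in nulliparous CD49f-low samples. It fell by 2.12 (SE 0.32) in CD49f-high and fell by 2.11 (SE 0.29) in CD49f-low cells, and the interval of the difference was -0.89 to 0.89. The binding protein gene Igfbp3 fell by 2.55 (SE 0.32) in CD49f-high and fell by 1.71 (SE 0.28) in CD49f-low cells (difference -0.84, SE 0.42, adjusted p = 0.351). Another binding protein gene, Igfbp2, fell by 0.90 in CD49f-low cells (SE 0.21, adjusted p = 0.0319), with an estimate of 0.36 (SE 0.24, adjusted p = 0.41) in CD49f-high cells, and was the 1 of 15 IGF genes with a called difference (1.26, SE 0.32). Sostdc1, a secreted antagonist of Wnt and BMP signals, fell by 0.89 (SE 0.27) in CD49f-high and fell by 1.75 (SE 0.25) in CD49f-low cells (difference 0.86, SE 0.37, adjusted p = 0.239).

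**Figure D4:**
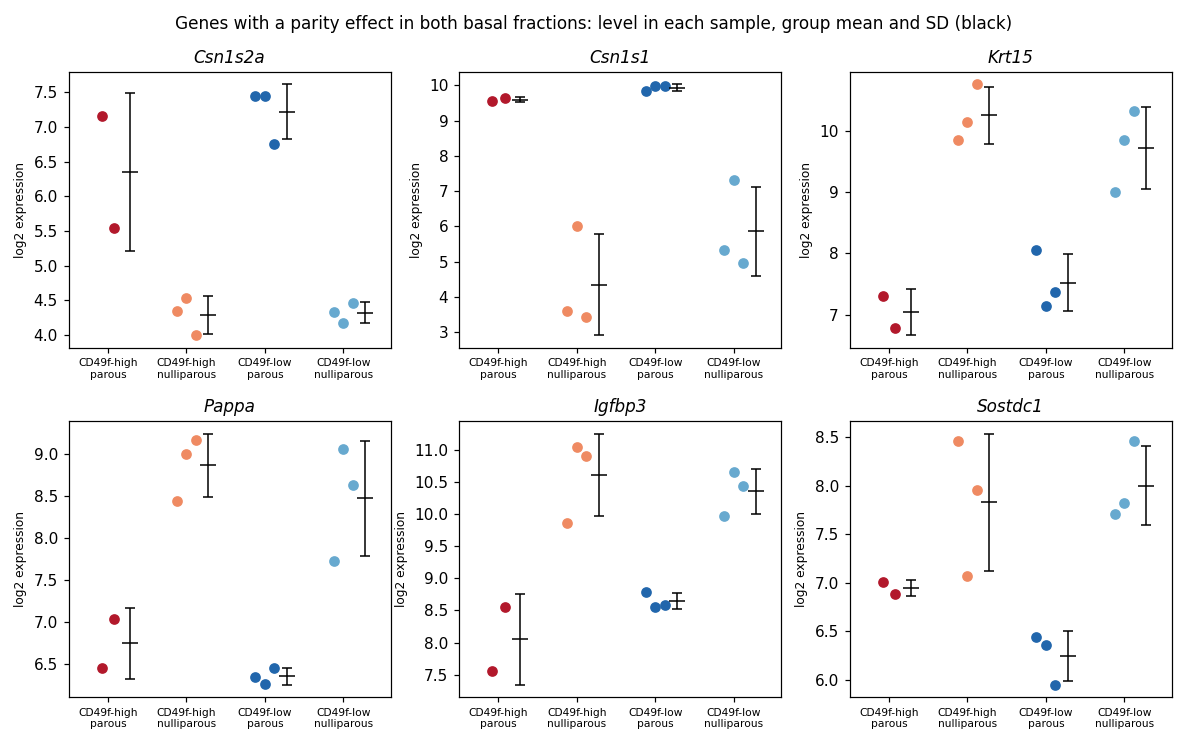
Level (log2 expression) of Csn1s2a, Csn1s1, Krt15, Pappa, Igfbp3 and Sostdc1, genes whose parity effect was called in both basal fractions, in each of the 11 basal samples (points), with group mean and SD in black. The casein genes are higher and the other 4 genes lower in parous than in nulliparous samples of both fractions.

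Of the remaining lists, proliferation genes had the lowest median difference (-0.65 over 33 genes, with 2 estimates above 0), and none of them had a called difference. In CD49f-high cells 15 of the 33 fell, beside 5.05% of all genes, among them the topoisomerase gene Top2a (-3.15, SE 0.60) and Mki67 (-1.93, SE 0.42), and in CD49f-low cells none passed. The list averaged 5.73 in both parous CD49f-high samples and 6.13 to 7.43 in nulliparous CD49f-high samples, against 5.67 to 5.78 in parous and 5.80 to 6.44 in nulliparous CD49f-low samples. Parous samples of both fractions were thus near the same level, and the nulliparous CD49f-high samples were spread over more than 1 log2 unit. Immediate early and stress genes, which respond within minutes to stimulation or handling, rose in CD49f-high cells for 10 of 21, beside 4.01% of all genes, and fell for none; 1 rose in CD49f-low cells, beside 0.286% of all genes. Their single called difference was that of Ier2, at 8.54 and 8.54 in parous and 7.25, 7.17 and 6.67 in nulliparous CD49f-high samples, against 7.13, 7.36 and 7.19 in parous and 7.27, 7.21 and 7.04 in nulliparous CD49f-low samples (1.45, SE 0.24, adjusted p = 0.00105), and it held. Fosl1, described above and not on this list, had a called negative difference (-1.77).

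Of 32 extracellular matrix genes 3 had a called positive difference, beside 0.988% of all genes, and none a negative one, beside 1.28% (list median 0.23). The 3 were Lama1, the elastin gene Eln (1.26, SE 0.33) and the fibronectin gene Fn1 (1.35, SE 0.36). The versican gene Vcan, which is not on this list, had a called negative difference (-1.95) that was lost on leaving out samples. In CD49f-low cells 5 of the 32 fell and 1 rose, beside 0.682% and 0.286% of all genes. In CD49f-high cells 3 fell and 3 rose, beside 5.05% and 4.01% of all genes. Markers of fibroblasts, the cells that make most of these proteins, had a median difference of 0.26 and none called, at the levels given above. Some of these markers are genes of matrix proteins themselves. Of 14 circadian genes 1 had a called difference, the repressor gene Cry1 (-0.96, SE 0.25). The lists of BMP and TGF-beta (30 genes), acute phase (20), interferon (20) and prolactin and STAT genes (13) had none.

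Calls of Krt7, Prkca, Ryk, Igfbp2, Eln, Fn1 and Cry1 lay near the threshold. Each was lost without 6 to 9 of the 11 samples, and all 7 without nulliparous CD49f-high replicate 2 and without parous CD49f-low replicate 3. Their highest adjusted p on leaving out a sample was 0.0779 to 0.353, and with weights it was 0.105 to 0.159.

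Beside Krt7 of the pan-luminal markers, no marker of another cell type had a called difference. None of 12 endothelial, 12 fibroblast, 8 pericyte, 13 macrophage and dendritic, 10 T and B cell, 6 Schwann and neural, 8 skeletal muscle, 7 hormone-sensing luminal or 2 red blood cell markers was called. Schwann and neural markers averaged 6.08 to 6.67 in parous and 5.78 to 6.11 in nulliparous CD49f-high samples, against 5.69 to 5.84 in parous and 5.71 to 5.94 in nulliparous CD49f-low samples. Endothelial markers averaged 5.41 to 5.84 in parous and 5.65 to 6.48 in nulliparous CD49f-high samples, against 5.94 to 6.22 in parous and 5.74 to 6.52 in nulliparous CD49f-low samples. Their part in the results was not tested.

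**Figure D5:**
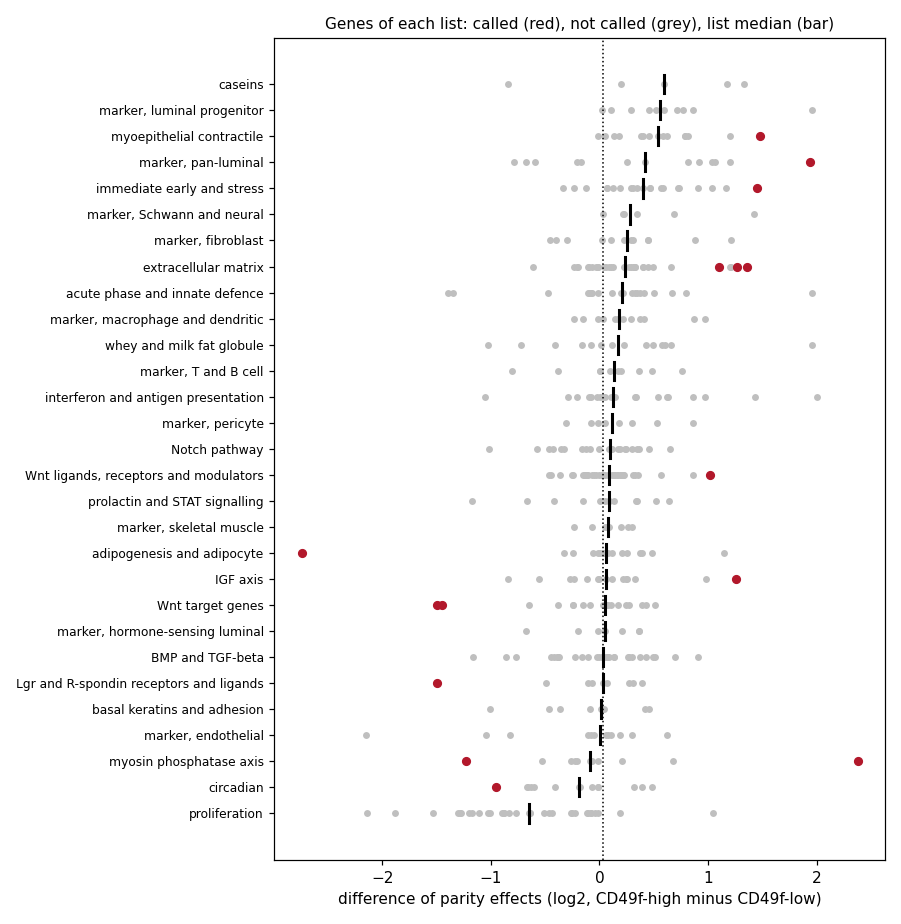
Difference of parity effects (horizontal axis, log2, CD49f-high minus CD49f-low) of each gene of the lists with at least 5 measured genes. Red points are called genes, grey points are genes that were not called, black bars are list medians and the dotted line is the median of all genes (0.04); the contractile list has its median at 0.54 and the proliferation list at -0.65.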

How the data were processed

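Expression was measured on 1-colour Affymetrix arrays. The deposited table holds log2 values per probe set made by the authors with the affy software, per the submitters' processing notes. Values run from 1.74 to 13.28 with column medians of 5.81 to 5.92, as a normalization between arrays would leave; which method, version and build were used is not given in the sources used here. Of 34760 probe sets, 21640 had 1 gene symbol in the supplied platform annotation, 1321 had several and 11799 none, and only the first kind was kept. For 954 genes with several probe sets the one with the highest mean was used, which left 19937 genes.

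In R 4.3.3, limma 3.58.1 fitted all 35 samples as 12 group means (lmFit, eBayes with trend = TRUE), and groups thus share 1 estimate of the spread. P-values were adjusted by Benjamini-Hochberg over all genes and called under 0.05; SEs are those of the fit. Alternatives were other weights and normalization, filters, probe set rules, the basal samples alone, a replicate block and leaving out samples. Simulated data with known changes were used to check the fit. Their noise had 1 spread per gene for all groups, so this check does not cover the wider spread of CD49f-high samples.

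Genes named were a panel of 24, the 15 largest called differences in each direction (predicted and numbered symbols left out), up to 4 called members of each list per direction, and genes singled out as stated; calls that held were preferred. Lists came from general knowledge, and some include Lgr5, Medag or Ppp1r14a, the markers given with this comparison. Counts of called list genes are to be read beside the share of all genes called (2.27% for the difference). The members and lists were chosen with earlier results of these data known. Samples of the same replicate number correlated, as deviations from group means, at 0.0763 and 0.0277 in parous mice. In nulliparous mice the values were 0.338, 0.139 and 0.263. All were above 0, and they do not decide whether the numbers pair the samples. The labels used state no pairing, so none was assumed, and fits with the number as a block are given below. The number of arrays limits the precision.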

Additional observations from a re-analysis of the deposited data

Results flagged for a closer look

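The test of the difference between parity effects, which sets a change in one basal fraction against the same change in the other, singled out 453 genes in all and 59 of the genes named. Values here are that difference in log2 units, CD49f-high minus CD49f-low.

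Positive differences were those of Kcnmb1 (2.74), Rida (2.61), Uts2b (2.60), Cebpzos (2.39), Ppp1r14a (2.38), Spa17 (2.19), Asb7 (2.14), Mir221 (1.97), Bcs1l (1.96), Krt7 (1.94), Dnajc18 (1.94), Cspg4b (1.90), Zfpl1 (1.89), Iftap (1.86), Serpinb9 (1.86) and Elp4 (1.85). Smaller ones were those of Acadm (1.73), Casq2 (1.62), Dmd (1.60), Trappc3 (1.52), Park7 (1.50), Actg2 (1.48), Synm (1.45), Ier2 (1.45), Fn1 (1.35), Slc2a4 (1.27), Eln (1.26), Igfbp2 (1.26), Lama1 (1.10), Sync (1.07) and Ryk (1.02).

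Below 0 were Lgr5 (-1.49), Cd44 (-1.45), Prkca (-1.23) and Cry1 (-0.96) of the lists, and Mir99a (-5.27), Gch1 (-2.36), Kctd9 (-2.19), Ssh2 (-2.10), Car8 (-2.03), Sgms2 (-2.01), Fosl1 (-1.77), Zcchc9 (-1.63), Emp1 (-1.56) and Slc2a1 (-1.20), all with a fall called in CD49f-high cells. Medag (-2.74) and Aff1 (-1.33) moved in opposite directions in the 2 fractions, and Adamts5 (-1.77), Dclk1 (-1.67) and Flnc (-1.17) rose in CD49f-low cells. The largest negative differences that were lost on leaving out samples were those of Slc7a11 (-2.14), Mcts2 (-2.11), Cbwd1 (-2.09), Vcan (-1.95), Dennd2c (-1.84), Nup50 (-1.83), Tmem243 (-1.82), Palmd (-1.81) and Sycp1 (-1.80).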

How the results depend on the processing

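Counts of called differences stayed within 1.5 times of 453 without the variance trend, after quantile normalization, over genes above the median level and with the mean of a gene's probe sets. The count (positive, negative) was 110 (45, 65) with array weights, 71 (25, 46) with weights per subpopulation, 17 (9, 8) with the 11 basal samples alone and 15 (8, 7) with both of the last 2, the last chosen after seeing the data. Parity in CD49f-high cells then gave 590, 488, 367 and 129 genes in that order of settings. Parity in CD49f-low cells gave 544 with array weights, 18 with the basal samples alone and 60 with weights there. CD49f-high minus CD49f-low in parous mice gave 497, 516, 159 and 115, and in nulliparous mice 15, 1, 0 and 0, where limma had 1139 and 1080 genes at an unadjusted p under 0.05 in the last 2 settings.

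With the replicate number as a fixed block the difference was called for 942 genes (403 positive, 539 negative), with 321 for parity in CD49f-low cells and 101 for CD49f-high minus CD49f-low in nulliparous mice; as a random block the replicate number gave 686 (305 positive, 381 negative) and 51. Of the 5 numbers shared by the fractions, 4 correlated best with their own number, which is a hint from the data and not the design. Leaving out 1 sample, or both basal samples of 1 replicate number, gave 161 to 865 differences (67 to 371 positive, 93 to 494 negative), 1137 to 2487 genes for parity in CD49f-high cells, 89 to 230 in CD49f-low cells, 855 to 1697 for CD49f-high minus CD49f-low in parous mice and 0 to 189 in nulliparous mice.

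The 59 called genes named kept their sign in each of these fits that gave them a value, which was 51 of 59 over genes above the median level. With the mean of a gene's probe sets 3 of the 59 lost their call. Among the named genes Aff1, Iftap, Ssh2, Asb7 and Elp4 have 2 probe sets each, and the values given are those of the one with the higher mean. Differences that were not called changed sign for Krt5 (-0.0018 with array weights, -0.17 to 0.13 with a sample left out), Hes1 (0.056 with array weights, -0.76 to 0.47), Pappa (0.239 with array weights, 0.0905 and 0.0227 with the fixed and random block, -0.30 to 0.37), Axin2 (-0.0203 to 0.46) and Csn3 (-0.50 to 1.38). The causes were not tested. Groups of 2 and 3 arrays limit what can be called.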

Other observations

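Small nucleolar RNA genes, which guide the chemical modification of ribosomal RNA, were looked at after their values were seen. Of 51 such genes 6 had a called negative difference (11.8%) and none a positive one, where 1.28% of all genes had a negative one. Their median parity effect was 0.23 in CD49f-high and 0.51 in CD49f-low cells, and the median difference was -0.19. These transcripts share a class, and many lie in introns of ribosomal protein genes, so they are not independent of one another.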
